A study of Mus musculus with 15 samples.

Results

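Transcripts of 8 genes that lengthen or desaturate fatty acids were followed in mouse liver across 5 diets. The genes are Elovl1, Elovl2, Elovl3, Elovl5, Fads1, Fads2, Fads3 and Scd2, taken as every probe set annotated to a desaturase or elongase other than Scd1 and Elovl6. They had 19 of the 45037 probe sets that are not controls, and were 8 of the 18193 genes measured. Each probe set carried the symbol of its own gene alone. Liver RNA came from male C57BL/6J mice, an inbred strain, with no genetic change stated, 7 weeks old at the start and fed for 9 weeks, with 3 mice per group and 1 Affymetrix Mouse Genome 430 2.0 array per mouse. The HFCC group received a high-fat diet, with 60% of its energy as fat, that contained 2% caffeinated freeze-dried coffee. The HFDC group received the same diet with 2% decaffeinated coffee, and the HFGC group with 2% green, unroasted caffeinated coffee. The HF group received the high-fat diet without coffee, and in the diet of the ND group 10% of the energy was fat.

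Long polyunsaturated fatty acids are made in the endoplasmic reticulum from the essential linoleic and alpha-linolenic acids, by enzymes that alternately insert a double bond and add carbons. The Fads2 product, the first desaturase of the path, and the Fads1 product, which makes arachidonic and eicosapentaenoic acid, act with the elongases of Elovl5 and Elovl2, and Elovl2 is needed for the step toward docosahexaenoic acid. The liver is the main site of this synthesis. Its genes are known to be driven by the transcription factor SREBP-1c, several of them also by PPARa, a nuclear receptor for fatty acids, and to be held down by dietary polyunsaturated fat.

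Robust multi-array averaging (RMA) had turned the probe signals of each array into a background-corrected, between-array normalized intensity for every probe set, deposited on a linear scale. All values below are log2 intensities, and all differences are on the log2 scale. Intensities of different probe sets are not compared as amounts of RNA. Each gene stood by its brightest probe set, those ending in _x_at being used only where a gene had no other, and limma was fitted to all 15 arrays. The threshold for a call was an adjusted p under 0.05, with Benjamini-Hochberg adjustment over all 18193 genes. The labelled tissue was checked against 6 hepatocyte markers, whose summed intensity lay between 89300 and 99340 in all 15 arrays. RNA quality was read from control probe sets at the 3' and 5' ends of Gapdh and Actb, where degraded RNA loses more of the 5' signal. The log2 3' minus 5' value set the HF arrays apart, with means of 0.93 ± 0.12 (HFCC), 0.93 ± 0.11 (HFDC), 0.82 ± 0.11 (HFGC), 1.22 ± 0.17 (HF) and 0.88 ± 0.06 (ND) (SD, n = 3 each). With this value as a covariate, limma called 14 genes in the HF group against the ND group, in place of 2465. Against the HF group it then called 0 genes, in place of 298 for HFCC, 913 for HFDC, 563 for HFGC and 1868 for the coffee groups together (1640, 2268, 1549 and 1920 at an unadjusted p under 0.05). Every call against the HF group given below, of members, lists and markers, is thus lost with the covariate. So are most of those in the HF group against the ND group. Each HF array had a higher value (1.08 or above) than any other array (1.07 or below), so that the covariate cannot cleanly be told apart from the HF group. The calls against the HF group rest on few arrays too, since 2, 5, 2 and 4 genes were called in these comparisons without HF replicate 2, and 8, 3, 2 and 64 without HF replicate 3. Whole liver holds several cell types, and fewer cells of a type cannot be told apart from less RNA per cell in these values.

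Of the 8 genes, each read by the probe set that stood for it, only Elovl2 was called. In the fit over all probe sets, given below, a dimmer Fads1 probe set was called in every high-fat group against the ND group (1.81 in the HF group, adjusted p = 0.000228 from limma). A dim Elovl1 probe set was called there in the HF group against the ND group. In the HF group against the ND group 1 of 8 was called, Elovl2, which was lower, where 13.5% of all genes were called (3 of 8 at an unadjusted p under 0.05, beside 28.8% of all genes). With decaffeinated coffee, in the HFDC group against the HF group, 1 of 8 was called, again Elovl2, here higher, where 5.02% of all genes were called (2 of 8 unadjusted, beside 22.7%). No member was called by limma in the HFCC group against the HF group, with 1.64% of all genes called and 0 of 8 at an unadjusted p under 0.05, beside 18.4% of all genes. None was called in the HFGC group against the HF group, with 3.09% of all genes called and 0 of 8 unadjusted, beside 20.6%. In the coffee groups together against the HF group 0 of 8 were called, with 10.3% of all genes called and 1 of 8 unadjusted, beside 25.5%. Against the ND group, Elovl2 was the 1 of 8 called lower in the HFCC group (2.78% of all genes called, and 3 of 8 unadjusted beside 17.0%) and in the HFGC group (1.45%, and 3 of 8 unadjusted beside 14.9%). In the HFDC group 0 of 8 were called (0.533%, and 0 of 8 unadjusted beside 14.2%). The median difference over the 8 genes was 0.01 in the HF group against the ND group, beside 0.00 over all genes. Their signs were mixed, with 4 of 8 above 0. The share of members called lies near the background in the HF group against the ND group. It lies above the background in the HFDC group against the HF group and in the HFCC and HFGC groups against the ND group, each time by the single call of Elovl2. The comparisons against the HF group share the HF arrays, and those against the ND group share the ND arrays.

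**Figure D1:**
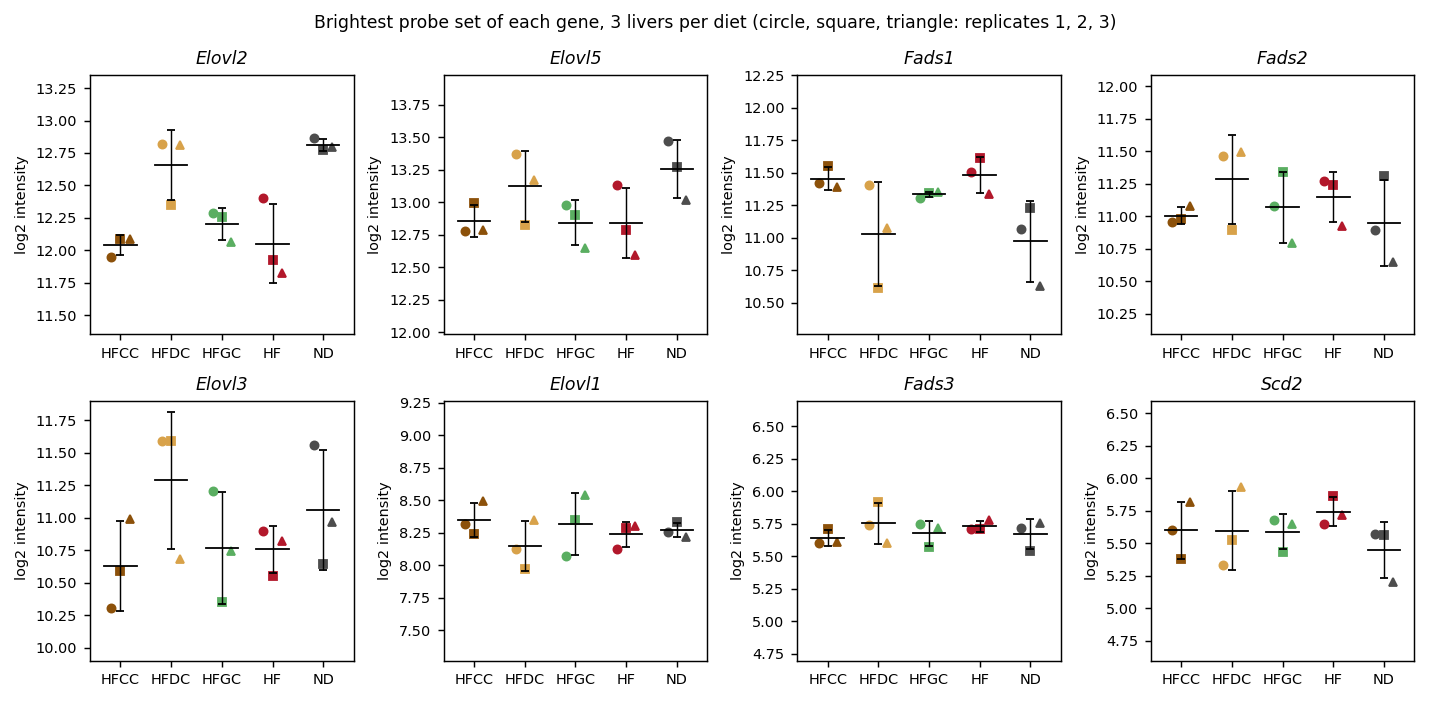
Log2 intensity of the 8 genes by diet group, for the probe set that stood for each, with 1 point per liver, the group mean (line) and SD (bar, n = 3). Each panel spans the same range around its own mean. Elovl2 lies at 12.77 or above in HFDC replicates 1 and 3 and in all ND livers, and at 12.40 or below in every other liver.

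Elovl2 elongates polyunsaturated acyl chains that Elovl5 has already lengthened, and 1 probe set measured it. Its log2 intensity was 11.95, 12.09 and 12.09 in the HFCC livers, 12.82, 12.35 and 12.81 in the HFDC livers, 12.29, 12.26 and 12.06 in the HFGC livers, 12.40, 11.93 and 11.83 in the HF livers, and 12.86, 12.77 and 12.80 in the ND livers. The ND livers lay closest together and above all HF, HFCC and HFGC livers. HFDC replicates 1 and 3 lay within the range of the ND livers, and HFDC replicate 2 lay below it and below HF replicate 1.

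Elovl2 fell by 0.76 in the HF group against the ND group (95% interval -1.06 to -0.46, adjusted p = 0.0048 from limma). It fell by 0.77 in the HFCC group (-1.07 to -0.47, adjusted p = 0.0107) and by 0.61 in the HFGC group (-0.91 to -0.31, adjusted p = 0.0453), both against the ND group. The HFDC group differed from the ND group by -0.15 (-0.45 to 0.15, adjusted p = 0.681). Against the HF group, Elovl2 rose by 0.61 in the HFDC group (0.31 to 0.91, adjusted p = 0.0305), although the arrays of these groups overlap. The difference from the HF group was -0.01 in the HFCC group (-0.31 to 0.29) and 0.15 in the HFGC group (-0.15 to 0.45), and neither passed. Over the 5 groups, limma's F was 13.09 for Elovl2 (adjusted p = 0.0112), where 7.27% of all genes were called. No other member passed that test, and the next were Fads1 (adjusted p = 0.118) and Elovl5 (adjusted p = 0.194).

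After adjustment for the 3' minus 5' value, the difference of Elovl2 between the HF and ND groups was -0.70 (adjusted p = 0.158), that between the HFDC and HF groups was 0.56 (adjusted p = 0.32), and that between the HFGC and ND groups was -0.62 (adjusted p = 0.0532), so that these calls were lost. The call in the HFCC group against the ND group was kept (adjusted p = 0.0165). The HFDC call against the HF group was lost without HF replicate 2 or 3 or HFDC replicate 1 or 3 (adjusted p from 0.0843 to 0.135), and the HFCC call against the ND group without HFCC replicate 1 (adjusted p = 0.0529). The HFGC call was lost on leaving out any of 10 of the 15 arrays in turn, that is without each ND, HFCC and HFGC array and without HF replicate 2 (adjusted p from 0.0531 to 0.119).

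Elovl5, which elongates the shorter polyunsaturated chains, had log2 intensities that ran with those of Elovl2. Its brighter probe set was at 12.78, 12.99 and 12.79 in the HFCC livers, 13.37, 12.83 and 13.17 in the HFDC livers, 12.98, 12.90 and 12.65 in the HFGC livers, 13.13, 12.79 and 12.60 in the HF livers, and 13.47, 13.27 and 13.02 in the ND livers. All HFCC and HFGC livers lay below all ND livers, while HF replicate 1 and HFDC replicates 1 and 3 lay within the ND range. The difference from the ND group was -0.42 in the HF group (95% interval -0.75 to -0.08, adjusted p = 0.0922), -0.40 in the HFCC group (-0.74 to -0.07, adjusted p = 0.203) and -0.41 in the HFGC group (-0.75 to -0.08, adjusted p = 0.225). It was -0.13 in the HFDC group (-0.47 to 0.20, adjusted p = 0.756). None of these passed over all genes. Without HF replicate 1, Elovl5 was called in the HF group (-0.56, adjusted p = 0.0271). Its other probe set, whose ending (_x_at) marks probes that can bind several transcripts, averaged 12.92 ± 0.16 in the HF group and 13.19 ± 0.29 in the ND group (SD, n = 3 each), and was not called.

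Over the 15 arrays, Elovl2 and Elovl5 correlated at Pearson r = 0.88 (Spearman rho = 0.921), and at r = 0.853 once each group's mean was taken off. Arrays of 1 diet share that diet, and both genes were read from the same RNA of each liver. HFDC replicate 2 and HF replicate 3 were the lowest of their groups in both genes, and HF replicate 1 the highest of its group. Among 9097 genes at or above the median level, the 3 whose values ran most like those of Elovl2 over the 15 arrays were Ehhadh (r = 0.953, rho = 0.925), Pnpla7 (r = 0.916, rho = 0.864) and Igfbp2 (r = 0.883, rho = 0.836). Without the arrays farthest from the median of Elovl2, ND replicate 1 and HFDC replicate 1, these r values were 0.944, 0.883 and 0.88. Ehhadh encodes the bifunctional enzyme of peroxisomal beta-oxidation, and had an intensity of 12.30 ± 0.25 in HFCC livers, 13.26 ± 0.24 in HFDC livers, 12.61 ± 0.34 in HFGC livers, 12.46 ± 0.35 in HF livers and 13.60 ± 0.27 in ND livers (SD, n = 3 each).

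Because Elovl2 and Elovl5 ran together, their promoter windows are shown, from 250 bases before to 50 bases after the start site, on build GRCm38.p6 from RefSeq. RefSeq windows were matched for 5 of the 8 genes, and Elovl3, Fads1 and Scd2 were not among them. RefSeq gives Elovl2 a second start site, whose window (chr13:41220113-41220412, minus strand, 76.7% G or C) holds none of the motifs below and is not printed. The Elovl2 window shown is chr13:41220354-41220653 on the minus strand, and the Elovl5 window is chr9:77917115-77917414 on the plus strand. Capitals mark matches to 5 motifs, searched on both strands. The core of the sterol regulatory element was searched as TCACNCCAC and the palindromic E-box as CACGTG. The CCAAT box was searched by the letters of its name. The GC box was searched as GGGCGG, and the nuclear receptor half-site as AGGTCA. In both windows the marked matches do not overlap each other.
Elovl2: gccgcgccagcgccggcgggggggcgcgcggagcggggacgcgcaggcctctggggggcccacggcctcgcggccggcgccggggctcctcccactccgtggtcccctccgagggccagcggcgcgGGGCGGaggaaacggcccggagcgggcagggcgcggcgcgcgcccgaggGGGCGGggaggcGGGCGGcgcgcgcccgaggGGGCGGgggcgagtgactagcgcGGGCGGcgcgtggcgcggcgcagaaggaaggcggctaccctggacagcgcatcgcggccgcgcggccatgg
Elovl5: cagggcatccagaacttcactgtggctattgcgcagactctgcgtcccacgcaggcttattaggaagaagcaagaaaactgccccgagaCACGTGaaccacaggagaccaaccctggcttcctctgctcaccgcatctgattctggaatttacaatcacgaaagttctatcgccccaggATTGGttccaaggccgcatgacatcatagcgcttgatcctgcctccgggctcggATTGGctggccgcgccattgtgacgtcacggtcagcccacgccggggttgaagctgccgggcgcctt
The Elovl2 window shown holds 5 GC boxes, which begin at -124, -75, -63, -44 and -21 from the start site, and 84.7% of its bases are G or C. The Elovl5 window holds the E-box at -161 and a pair of CCAAT boxes read on the opposite strand at -71 and -17, with 57.7% G or C. Of 32851 mouse promoter windows of this length, 35.66% hold a GC box, 37.41% a CCAAT box, 7.15% the E-box, 16.26% the half-site and 1.24% the sterol core. Neither window holds the sterol core or the half-site letters, and no motif was marked in both. A match in letters is not evidence of a bound site.

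Fads1 was the member whose probe sets differed most in how far they moved. The gene lies on chromosome 19 at 10182877 to 10196874, with Fads2 at 10062765 to 10101503 and Fads3 at 10040855 to 10060113 on the same chromosome (GRCm38.p6). Its brighter probe set was at 11.42, 11.55 and 11.39 in the HFCC livers, 11.40, 10.61 and 11.08 in the HFDC livers, 11.31, 11.34 and 11.35 in the HFGC livers, 11.50, 11.61 and 11.34 in the HF livers, and 11.06, 11.23 and 10.62 in the ND livers. All HF, HFCC and HFGC livers lay above all ND livers while HFDC replicate 1 lay within the HF range and HFDC replicate 2 just below the lowest ND liver. The difference between the HF and ND groups was 0.51 (95% interval 0.15 to 0.87) and did not pass (adjusted p = 0.0562 from limma). It was called without ND replicate 2 (0.64, adjusted p = 0.0371) and without HFDC replicate 1 or 2 (adjusted p = 0.0312 and 0.0242). Against the HF group the difference was -0.03 in HFCC livers (adjusted p = 0.96), -0.45 in HFDC livers (adjusted p = 0.123) and -0.15 in HFGC livers (adjusted p = 0.675).

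The dimmer Fads1 probe set was at 8.10, 7.43 and 7.44 in the HFCC livers, 7.32, 6.77 and 7.60 in the HFDC livers, 7.11, 7.51 and 7.25 in the HFGC livers, 7.55, 7.83 and 7.75 in the HF livers, and 5.82, 5.94 and 5.93 in the ND livers. Every liver on the high-fat diet lay above all ND livers, the lowest being HFDC replicate 2, and the ND livers lay close together. In the fit over all 45037 probe sets it rose by 1.81 in the HF group (95% interval 1.40 to 2.22, adjusted p = 0.000228), 1.76 in HFCC livers (1.35 to 2.17, adjusted p = 0.000307), 1.34 in HFDC livers (0.93 to 1.75, adjusted p = 0.0131) and 1.39 in HFGC livers (0.98 to 1.80, adjusted p = 0.00327), each against the ND group. Against the HF group the difference was -0.05 in HFCC livers (adjusted p = 0.942), -0.48 in HFDC livers (adjusted p = 0.184) and -0.42 in HFGC livers (adjusted p = 0.259), none of which passed. All HFGC livers lay below all HF livers. After the same adjustment, the HF difference from the ND group was 1.43 (adjusted p = 0.059), while those of the coffee groups, in the order HFCC, HFDC, HFGC, were 1.70, 1.28 and 1.45 and were kept (adjusted p = 0.000439, 0.0103 and 0.00197). The HFDC call was lost without HFDC replicate 3 (1.15, adjusted p = 0.0522).

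The brighter minus the dimmer Fads1 value averaged 3.80 ± 0.42 in HFCC livers, 3.80 ± 0.31 in HFDC livers, 4.04 ± 0.19 in HFGC livers, 3.77 ± 0.18 in HF livers and 5.08 ± 0.33 in ND livers (SD, n = 3 each). No array on the high-fat diet exceeded 4.20, and the ND arrays lay from 4.70 to 5.29. The probe sets therefore changed unequally, and which stretch of the transcript each of them binds is not given in the sources used here.

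**Figure D2:**
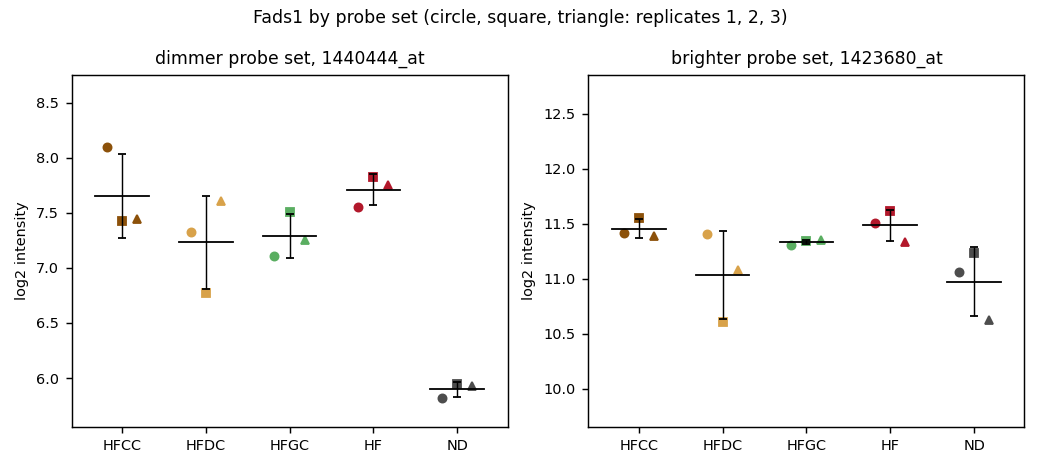
Log2 intensity of the dimmer (left) and the brighter (right) Fads1 probe set by diet group, with 1 point per liver, the mean (line) and SD (bar, n = 3). On the left all livers on the high-fat diet lie at 6.77 or above and the 3 ND livers between 5.82 and 5.94, while on the right the HFDC and ND livers overlap.

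Fads2, the desaturase that opens the path, did not pass in any comparison. Its brightest probe set was at 10.96, 10.98 and 11.08 in the HFCC livers, 11.47, 10.89 and 11.49 in the HFDC livers, 11.08, 11.34 and 10.79 in the HFGC livers, 11.27, 11.24 and 10.93 in the HF livers, and 10.89, 11.31 and 10.65 in the ND livers. The groups overlap throughout, and the HF group differed from the ND group by 0.20 (95% interval -0.19 to 0.59, adjusted p = 0.515). Fads1 and Fads2 correlated at r = 0.421 over the 15 arrays and at r = 0.758 within groups. HFDC replicate 2 was the lowest of its group and ND replicate 2 the highest of its group in both. Within groups, Elovl5 correlated at r = 0.712 with Fads1 and at r = 0.669 with Fads2. Elovl2 and Fads1 correlated at r = -0.515 over all arrays but at r = 0.48 within groups. All these r values rest on the same 15 arrays. Fads3, whose product desaturates sphingoid bases, averaged 5.64 ± 0.06 in HFCC livers, 5.75 ± 0.16 in HFDC livers, 5.68 ± 0.10 in HFGC livers, 5.73 ± 0.04 in HF livers and 5.67 ± 0.11 in ND livers (SD, n = 3 each). This dim signal lies below the median of 6.41 over all genes. No probe set of Fads2 or Fads3 was called in any comparison, and their HF minus ND differences ranged from 0.14 to 0.35 over the 3 probe sets of Fads2 and from 0.0052 to 0.12 over the 3 of Fads3.

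Elovl3, Elovl1 and Scd2 act mainly on saturated and monounsaturated chains. Elovl3, which extends such chains and whose transcript follows the time of day in mouse liver, was at 10.31, 10.59 and 10.99 in the HFCC livers, 11.59, 11.59 and 10.68 in the HFDC livers, 11.21, 10.35 and 10.75 in the HFGC livers, 10.90, 10.56 and 10.82 in the HF livers, and 11.56, 10.65 and 10.97 in the ND livers. Its differences had the largest standard error of the 8 genes, 0.28, and HFDC replicates 1 and 2 and ND replicate 1 stood above the rest. Its largest difference was 0.66 between the HFDC and HFCC groups (95% interval 0.07 to 1.25, adjusted p = 0.565), which did not pass. Between the HF and ND groups it was -0.30 (-0.89 to 0.29, adjusted p = 0.515). Of 18 measured clock genes and their outputs, 1 was called in HF livers against ND livers, beside 13.5% of all genes. This was the period gene Per2, which fell (-0.89, adjusted p = 0.00472). Per2 was also lower in HFDC than in ND livers (-0.80, adjusted p = 0.0459) and higher in HFGC than in HF livers (0.82, adjusted p = 0.0265). With the covariate its HFDC call against the ND group was kept (adjusted p = 0.0337), and those of the HF group against the ND group (-0.44, adjusted p = 0.287) and of the HFGC group against the HF group (0.30, adjusted p = 0.695) were lost. That HFDC call was itself lost on leaving out any ND, HFCC or HFDC array, HF replicate 3 or HFGC replicate 2. Per1, another period gene, was higher in HFGC than in ND livers (0.61, adjusted p = 0.0343) and than in HFDC livers (0.90, adjusted p = 0.0378), and kept both calls with the covariate. The call against the ND group was lost without ND replicate 1 or 3, HF replicate 3 or HFGC replicate 1 or 2. The call against the HFDC group was lost without ND replicate 2 or 3, HF replicate 3, HFDC replicate 2 or 3 or HFGC replicate 1 or 2. The hour at which the livers were taken is not given in the sources used here, and the part of the time of day in the Elovl3 spread was not tested.

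Elovl1, an elongase of very long saturated chains, averaged 8.35 ± 0.13 in HFCC livers, 8.15 ± 0.19 in HFDC livers, 8.32 ± 0.24 in HFGC livers, 8.24 ± 0.10 in HF livers and 8.27 ± 0.06 in ND livers (SD, n = 3 each) on the probe set that stood for the gene, and its brighter _x_at probe sets differed by 0.20 and 0.16 between the HF and ND groups without passing. The HF minus ND difference was -0.03 (95% interval -0.28 to 0.22, adjusted p = 0.893). The dimmest of its _x_at probe sets was at 4.74, 5.01 and 4.62 in the HF livers against 4.42, 4.51 and 4.03 in the ND livers, and rose by 0.47 in the HF group (0.22 to 0.73, adjusted p = 0.024 over all probe sets). This call was lost with the covariate (0.43, adjusted p = 0.324), without ND replicate 3 (0.33, adjusted p = 0.0774), without HF replicate 2 (0.36, adjusted p = 0.11) and when the compared groups were fitted alone (adjusted p = 0.122), and this probe set is dim and can bind several transcripts. In the HFDC group against the HF group the Elovl1 _x_at probe sets, from brightest to dimmest, differed by -0.39, -0.28 and -0.33. None of these passed (adjusted p = 0.065, 0.172 and 0.139 from limma), and the probe set that stood for Elovl1 was at -0.09. Scd2, a stearoyl-CoA desaturase known mainly from brain and newborn liver, was at 5.65, 5.86 and 5.71 in the HF livers against 5.57, 5.57 and 5.20 in the ND livers. These arrays do not overlap, but the difference of 0.30 (-0.02 to 0.61) did not pass (adjusted p = 0.205). The other Scd2 probe sets averaged 4.56 ± 0.08 and 3.61 ± 0.09 in the HF group against 4.76 ± 0.11 and 3.73 ± 0.21 in the ND group (SD, n = 3 each), and so lay on the other side of 0.

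Counted by overlap, 3 of the 8 genes separated the HF livers from the ND livers completely, Elovl2 below and Fads1 and Scd2 above, where 26.5% of all genes did so. In the HFCC group against the ND group 3 of 8 did so (Elovl2, Elovl5 and Fads1, beside 20.0% of all genes), and in the HFGC group against the ND group the same 3 genes did so (17.1%). Over probe sets, 3 of the 19 were called in the HF group against the ND group (Elovl2, the dimmer one of Fads1 and the dimmest one of Elovl1), where 10.3% of all probe sets were. Against the ND group, 2 of 19 were called in the HFCC group (1.85%), 1 of 19 in the HFDC group (0.440%) and 1 of 19 in the HFGC group (0.966%). The dimmer Fads1 probe set was among those called in each of these 4 comparisons.

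**Figure D3:**
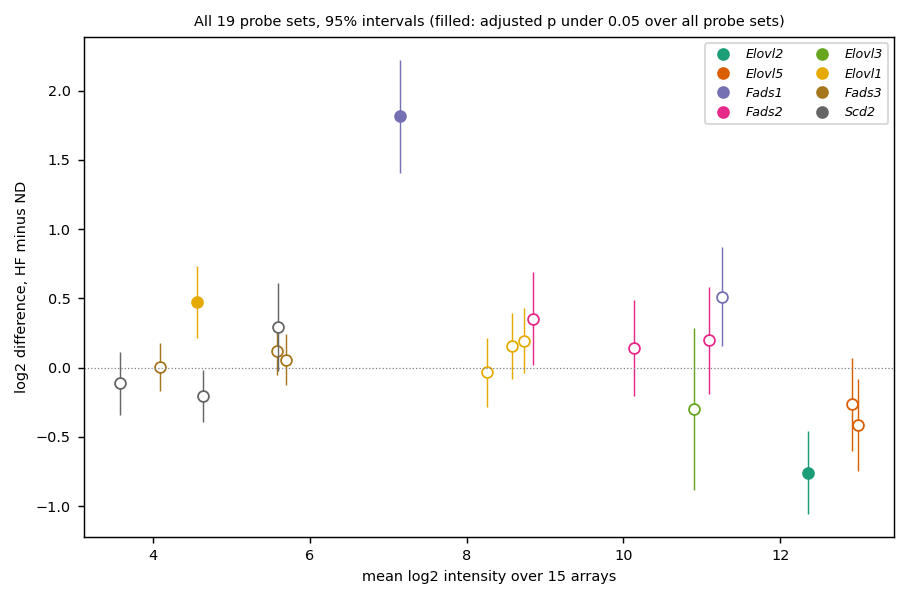
Log2 difference between the HF and ND groups (vertical axis) against the mean log2 intensity over 15 arrays (horizontal axis) for all 19 probe sets, coloured by gene, with 95% intervals from limma and filled points where the adjusted p over all probe sets is under 0.05. The 2 Fads1 probe sets lie at 1.81 and 0.51, and the probe sets of Scd2 lie on both sides of 0.

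Between the coffee types, no member passed. In the HFDC group against the HFCC group, Elovl2 was higher by 0.62 (95% interval 0.32 to 0.92, adjusted p = 0.121). There 0 of 8 genes were called (0.0934% of all genes called, and 3 of 8 at an unadjusted p under 0.05, beside 7.97% of all genes). In the HFGC group against the HFDC group the difference of Elovl2 was -0.46 (-0.75 to -0.16, adjusted p = 0.452), with 0 of 8 genes called (0.0385%, and 1 of 8 unadjusted beside 6.74%). In the HFGC group against the HFCC group it was 0.16 (-0.14 to 0.46, adjusted p = 1.0). Limma called 0 of 8 genes there and 0% of all genes (0 of 8 unadjusted, and 464 of all genes). The interval of the Elovl2 difference excludes 0 in both comparisons with the HFDC group, before adjustment over all genes.

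**Figure D4:**
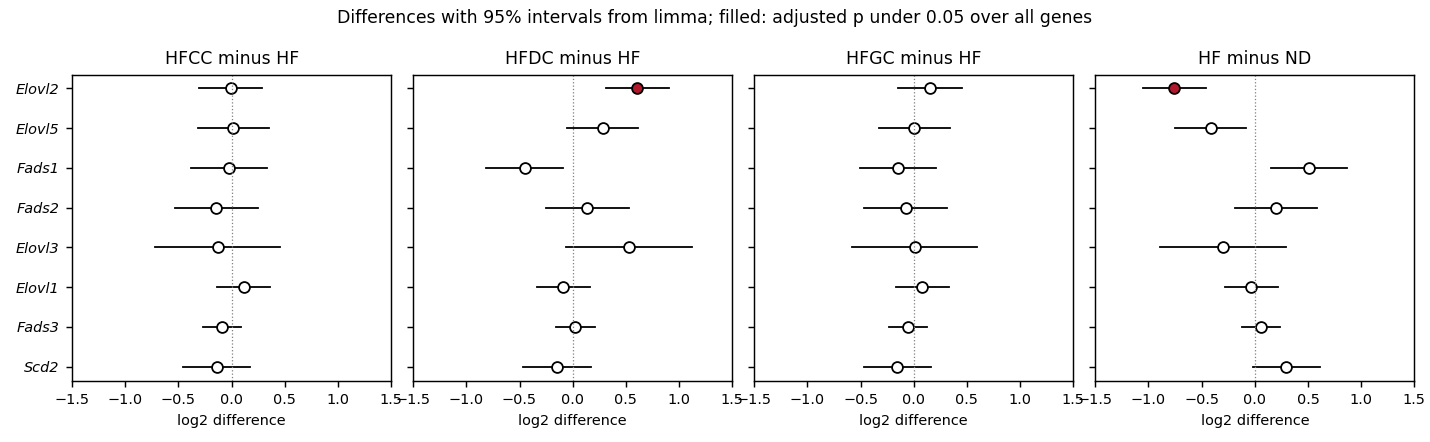
Log2 differences of the 8 genes with 95% intervals from limma, in the HFCC, HFDC and HFGC groups against the HF group and in the HF group against the ND group. Filled points mark an adjusted p under 0.05 over all genes, which only Elovl2 reached, at 0.61 in the HFDC group and -0.76 in the HF group.

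Other genes of the path were read from lists. Over these lists and the clock and marker lists, 35 genes were called in the HF group against the ND group, where 13.5% of all genes were called. Of the 35 list genes 1, Cyb5b, was also called with the 3' minus 5' covariate (0.80, adjusted p = 0.0196). Against the ND group, 21 list genes were called in the HFCC group, 19 in the HFGC group and 4 in the HFDC group. There 2.78%, 1.45% and 0.533% of all genes were called. With the covariate 21, 19 and 3 of these list genes kept their calls. Against the HF group, 3 list genes were called with caffeinated, 8 with decaffeinated and 6 with green coffee, where 1.64%, 5.02% and 3.09% of all genes were called. None of these list genes kept its call with the covariate, without HF replicate 2 or without HF replicate 3. Among 8 measured elongases and desaturases outside the 8 genes, 1 was lower in HF than in ND livers, Elovl6, the elongase of palmitate, which fell by 0.98 (adjusted p = 0.0113, a call lost without HF replicate 2), and Scd1, the main liver stearoyl-CoA desaturase, differed by -0.41 (adjusted p = 0.278). The median of this list was -0.08, beside 0.00 over all genes, and it had 0 of 8 genes called in each coffee group against the HF group. Of 15 measured genes of the elongation cycle and its electron donors, 2 rose in the HF group against the ND group, beside 13.5% of all genes called. Cyb5b, a cytochrome b5, rose by 0.90 (adjusted p = 3.86e-05) and Cyb5r3, a cytochrome b5 reductase, by 0.43 (adjusted p = 0.0345). When HFDC was set against HF, 3 of the 15 fell, namely Cyb5b (-0.53, adjusted p = 0.0134), Cyb5r3 (-0.52, adjusted p = 0.0348) and Tecr, the reductase of the last step of each elongation cycle (-0.51, adjusted p = 0.0294). Acsl3, which activates fatty acids to their CoA forms, rose by 1.03 in the HFCC group and by 0.87 in the HFGC group against the HF group (adjusted p = 0.0341 and 0.042), and Cyb5b fell by 0.30 in the HFGC group (adjusted p = 0.0492). Against the ND group, Acsl3 rose by 1.68 in the HFCC group and 1.51 in the HFGC group, and Cyb5b by 0.77 and 0.61. All of these calls against the ND group were kept with the covariate.

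Of 8 measured peroxisomal genes of the last step toward docosahexaenoic acid, 1 rose and 1 fell in the HF group against the ND group (13.5% of all genes called). These were Abcd2, a peroxisomal importer of very long chain acyl-CoA (1.42, adjusted p = 0.00556), and Pex5, the import receptor for peroxisomal enzymes (-0.27, adjusted p = 0.0321). Of 21 measured genes on a list for the use of polyunsaturated fatty acids, 2 rose and 1 fell in the same comparison. Mfsd2a, a transporter of lysophospholipids that carry docosahexaenoic acid, rose by 2.02 (adjusted p = 0.00489), Pla2g12b, of the secreted phospholipase family, by 0.34 (adjusted p = 0.0176), and Ephx2, a hydrolase of fatty acid epoxides, fell by 0.24 (adjusted p = 0.0318). The medians of the peroxisomal list and of this list were -0.01 and -0.02 in this comparison, beside 0.00 over all genes. Mfsd2a was also called in the HFCC and HFGC groups against the ND group (2.23 and 1.78), and kept both calls with the covariate.

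Of 17 measured lipogenic genes driven by SREBP-1c, LXR or ChREBP, 1 rose and 2 fell in the HF group against the ND group (13.5% of all genes called). These were Acss2, an acetyl-CoA synthetase (0.77, adjusted p = 0.00844), Elovl6, and Abca1, a cholesterol exporter (-0.50, adjusted p = 0.009). Between HFDC and HF livers, Acss2 fell by 0.81 (adjusted p = 0.0247) and Abca1 rose by 0.41 (adjusted p = 0.0422). With the covariate these differences were -0.57 and 0.17 (adjusted p = 0.328 and 0.561), so that both calls were lost. Of 13 measured genes of PPARa and its targets, 1 rose and 2 fell in the HF group against the ND group, beside the same 13.5% of all genes. Ppara itself rose by 0.92 (adjusted p = 0.00157), while Ehhadh fell by 1.14 (adjusted p = 0.00407) and Acadl, an acyl-CoA dehydrogenase, by 0.30 (adjusted p = 0.0113). Against the HF group, Ehhadh rose by 0.79 in the HFDC group (adjusted p = 0.0396), and Ppara fell by 0.64 with caffeinated, 0.54 with decaffeinated and 0.79 with green coffee (adjusted p = 0.0365, 0.0368 and 0.0161). With the covariate the Ehhadh difference was 0.73 (adjusted p = 0.338), and those of Ppara were -0.30, -0.21 and -0.33 (adjusted p = 0.539, 0.543 and 0.592). Ehhadh was also called lower in the HFCC and HFGC groups against the ND group (-1.30 and -0.99), and kept both calls with the covariate.

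Genes of sterol synthesis under SREBP-2 moved in the largest number among the lists. In the HF group against the ND group 12 of 14 measured genes rose and none fell, with a median of 1.74, where 13.5% of all genes were called. With the covariate 0 of 14 were called there, with a median of 1.17, and without HF replicate 2 there were 9. In the HFCC and HFGC groups against the ND group 13 of 14 rose (medians of 2.37 and 2.02), beside 2.78% and 1.45% of all genes called. The count of sterol genes in both was 13 with the covariate too, while in the HFGC group it was 6 without HFGC replicate 2. In the HFDC group 1 of 14 rose, Insig1 (1.48, adjusted p = 0.0273), a protein that holds SREBP back when sterols are plentiful, with a list median of 0.73, and this call was kept with the covariate (adjusted p = 0.0337) but lost without ND replicate 1 or 3 or HFDC replicate 1 or 3. In the HF group, Sqle, the squalene epoxidase, rose by 2.80 (adjusted p = 0.0122), Idi1 by 2.64 (adjusted p = 0.00356), Fdps by 2.53 (adjusted p = 0.00261) and Cyp51 by 2.48 (adjusted p = 0.00222). The median log2 intensity of the 14 genes was 10.50, 9.51 and 10.30 in the HFCC livers, 9.38, 7.56 and 7.64 in the HFDC livers, 9.23, 9.81 and 10.27 in the HFGC livers, 9.23, 9.03 and 8.71 in the HF livers, and 7.41, 7.42 and 7.36 in the ND livers. HFDC replicates 2 and 3 thus lay near the ND livers, and HFDC replicate 1 just above the HF livers. Elovl2 did not split the HFDC livers in that way, since replicates 1 and 3 were both high in Elovl2 at 12.82 and 12.81. The dimmer Fads1 probe set, chosen for this after its values were seen, ran most like Insig1 (r = 0.921, rho = 0.679), Txlna (r = 0.92) and Btnl9 (r = 0.916) over the 15 arrays, and without ND replicates 1 and 3 these values were 0.847, 0.835 and 0.848. It correlated with Elovl2 at r = -0.70 (-0.55 without the same arrays). The part of sterol-responsive transcription in the Fads1 values was not tested.

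**Figure D5:**
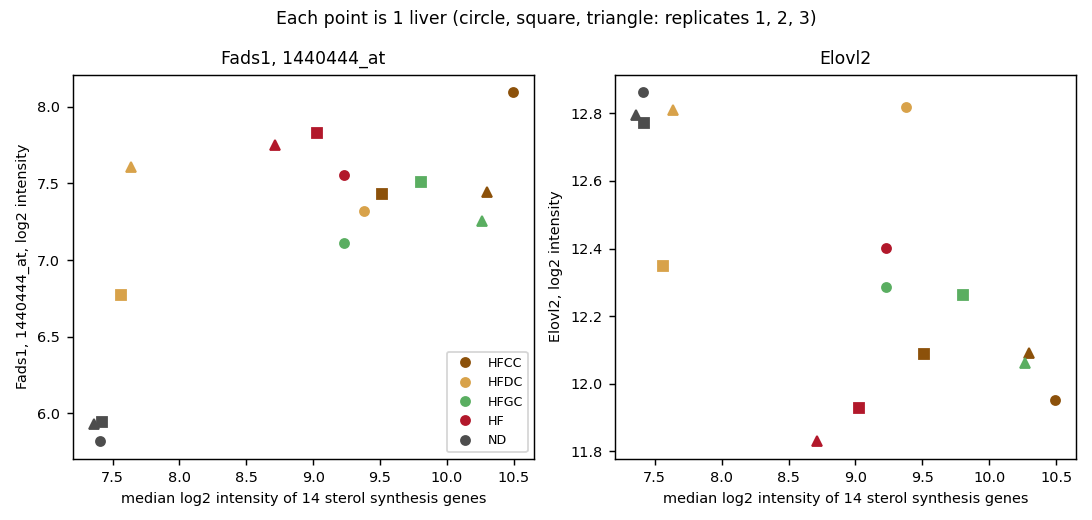
Log2 intensity of the dimmer Fads1 probe set (left) and of Elovl2 (right) against the median log2 intensity of 14 sterol synthesis genes, with 1 point per liver, coloured by diet group. HFDC replicate 1 has a sterol median of 9.38 and an Elovl2 value of 12.82, while the ND livers have the lowest sterol medians, from 7.36 to 7.42.

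Some markers of other cell types differed between the HF and ND groups, where limma called 13.5% of all genes. In the HF group against the ND group 4 of 8 stellate cell and fibroblast markers were higher (summed intensity 3879 to 4950 in the HF group and 3423 to 3874 in the ND group), 2 of 3 neutrophil markers (183.9 to 322.5 and 119.4 to 155.1), 1 of 6 sinusoidal endothelial markers (2361 to 2560 and 1929 to 2804) and 1 of 3 erythroid markers (1071 to 1362 and 885.8 to 1110). Of the 6 hepatocyte markers 1 was higher, Fah, with sums of 90530 to 93190 and 90760 to 98990. None of 8 macrophage, 4 adipocyte, 4 cholangiocyte or 6 lymphocyte markers passed. Between HFDC and HF livers 1 marker of all these lists passed, the endothelial Stab2, which was lower (-0.39, adjusted p = 0.0259). With the covariate no marker was called in either of these comparisons, and Stab2 was at -0.21 between HFDC and HF livers (adjusted p = 0.361). Between HFCC and ND livers and between HFGC and ND livers, where Elovl2 was called, none of the markers of any list passed. In these comparisons 2.78% and 1.45% of all genes were called. Stellate cell and fibroblast sums were 4482 to 4616 in the HFCC group, above the ND range, and 3795 to 4700 in the HFGC group. Neutrophil sums were 151.9 to 196.2 in the HFCC group and 163.7 to 226.3 in the HFGC group, the latter above the ND range. The sums of the other lists overlapped those of the ND group. Between HFDC and ND livers the neutrophil marker S100a8 was higher (1.41, adjusted p = 0.0459), a call kept with the covariate (adjusted p = 0.0399). The part of these marker shifts in the differences of Elovl2 and Fads1 was not tested.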

How the data were processed

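Livers of 15 mice, 3 in each of 5 groups, gave 1 array each. The deposited intensities were computed by the authors with RMA, as the submitters' processing notes state, with software whose name and version were not given in the sources used here. They were used as deposited, on the log2 scale. Sample labels gave the groups, and 0 columns stayed unmapped.

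The table held 45101 probe sets, of which 64 were controls. A platform annotation named 34945 of the others by exactly 1 symbol, 932 by several and 9160 by none, and 34741 matched a gene record of GRCm38.p6. The brightest probe set stood for each of 18193 genes, with those ending in _x_at used only for genes that had no other.

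Differences were tested with limma 3.58.1 in R 4.3.3, with 5 group means and 10 residual degrees of freedom, and p-values were adjusted over all genes and separately over 45037 probe sets. Precision is limited by the 3 arrays per group. A difference between a pair of groups had a median standard error of 0.092 over genes. The fit was also run on simulated arrays with independent noise for each gene and no difference in RNA quality. That run cannot test how RNA quality affects the calls. All 8 genes are named, with up to 4 called genes of each list per comparison, and the 3 genes most like a called member. The members and lists were chosen with earlier results of these data known. Processing was varied by averaging probe sets, adjusting over all probe sets, keeping genes at the median level or brighter, cyclic loess, an offset of 32, fitting the compared groups alone, a replicate block, limma's trend and robust options, the 3' minus 5' covariate, and omitting each array. Promoter windows came from RefSeq, and motifs were matched by letters.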

Additional observations from a re-analysis of the deposited data

How the results depend on the processing

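Over 1720 combinations of a result and an alternative, the counts of members called were the ones that moved most, since each count is 0 to 2. In the HF group against the ND group the count was 2 with averaged probe sets (Fads1 at 1.16, adjusted p = 0.000934), with genes at or above the median level (Fads1 at 0.51, adjusted p = 0.0447) and with the replicate block (Elovl5 at -0.42, adjusted p = 0.0488), 0 with the 3' minus 5' covariate, and 1 to 2 when 1 array was left out. In the HFDC group against the HF group it was 0 with the covariate and with the groups compared alone (Elovl2 at adjusted p = 0.111), and 0 to 1 when 1 array was left out. In the HFCC group against the ND group it was 2 with averaged probe sets (Fads1 at 1.12, adjusted p = 0.00176), and 0 to 1 when 1 array was left out. In the HFGC group against the ND group it was 2 with averaged probe sets (Fads1 at 0.88, adjusted p = 0.0136), 0 with the covariate, with all probe sets (Elovl2 at adjusted p = 0.0545) and with the offset of 32 (adjusted p = 0.0646), and 0 to 1 when 1 array was left out. In the coffee groups together against the HF group it was 0 to 1, the call being Elovl2 without HF replicate 1 (0.42, adjusted p = 0.0156). Calls over all genes moved as well, to 14 (0.0770%) in the HF group against the ND group and to 0 in every comparison against the HF group with the covariate, and to 989 in the HF group against the ND group without HF replicate 2. Among 9097 genes at or above the median level, 2301 were called in the HF group against the ND group, beside 2 members. With the replicate block 2337 of 18193 genes were called there. With the groups compared alone, 5 genes were called in the HFDC group against the HF group, in place of 913. In the HFGC group against the ND group the covariate gave 282 genes, in place of 264. With averaged probe sets no count over all genes is given. The averaged Fads1 value combines its brighter and dimmer probe sets. Elovl2 kept its HF call against the ND group in all 15 fits that leave out 1 array (-0.93 to -0.65, adjusted p from 0.000735 to 0.0286), and the dimmer Fads1 probe set did too (1.75 to 1.89, adjusted p up to 0.00225). With the groups compared alone, that probe set lost its HFDC call against the ND group (1.34, adjusted p = 0.107). The cause of the lost calls was not tested.

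Signs changed only for differences that were not called. With averaged probe sets, between the HF and ND groups Elovl1 was at 0.20 and Scd2 at -0.0069. In the HFCC group against the HF group Elovl1 was at -0.054, Elovl5 at -0.088 and Fads3 at 0.0031, Fads3 was at -0.020 for HFDC against HF, and for HFGC against HF Elovl1 was at -0.12, Elovl5 at -0.096 and Fads3 at 0.0002. With cyclic loess, Elovl2 was at 0.0017 in the HFCC group and Fads3 at -0.0022 in the HFDC group, both against the HF group. With the 3' minus 5' covariate, Elovl1 was at 0.069 between the HF and ND groups. With it Fads1 was at 0.083 and its dimmer probe set at 0.27 in the HFCC group against the HF group, and in the HFGC group Elovl1 was at -0.035, Elovl3 at -0.22, Fads1 at 0.0003, Fads2 at 0.074 and the dimmer Fads1 probe set at 0.019.

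When 1 array was left out, the ranges that include 0 were, between the HF and ND groups, -0.063 to 0.024 for Elovl1 and -0.0075 to 0.10 for Fads3. In the HFCC group against the HF group they were -0.12 to 0.16 for Elovl2, -0.31 to 0.031 for Elovl3, -0.11 to 0.16 for Elovl5, -0.10 to 0.034 for Fads1 and -0.27 to 0.060 for its dimmer probe set. Fads3 ranged over -0.060 to 0.10 for HFDC against HF. For HFGC against HF they were -0.029 to 0.21 for Elovl1, -0.21 to 0.22 for Elovl3, -0.12 to 0.15 for Elovl5, -0.21 to 0.064 for Fads2 and -0.091 to 6e-04 for Fads3. They were -0.021 to 0.25 for Elovl5 in the coffee groups together. In the HFDC group against the ND group they were -0.23 to 0.0047 for Elovl2, -0.26 to 0.015 for Elovl5 and -0.13 to 0.27 for Fads1. For Elovl5 in the HFGC group against the HFCC group the range was -0.078 to 0.088.

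The replicate numbers carry no pairing in the labels. Deviations of arrays with the same number correlated at -0.28 to 0.23 for number 1, -0.26 to 0.18 for number 2 and -0.07 to 0.10 for number 3, and 6 of 15 arrays correlated best with an array of their own number. With the replicate block, the count of members called changed from 1 to 2 in the HF group against the ND group and in no other comparison. Dim signals limit what Fads3 and Scd2 can show.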
